A study of Mus musculus with 8 samples.

Results

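The 10 genes described here are 6 dual specificity phosphatases that remove phosphate from MAP kinases (Dusp1, Dusp2, Dusp4, Dusp5, Dusp6 and Dusp10) and 4 genes of the Sprouty and Spred families (Spry1, Spry2, Spred1 and Spred2). They were chosen by name as inhibitors of MAP kinase signalling, and each was matched to its Ensembl identifier among the 56748 gene IDs of the count tables. All 10 were among the 14942 genes with enough counts to be tested. MAP kinases are switched on by phosphorylation of a threonine and a tyrosine, and dual specificity phosphatases remove both phosphates. Many of these genes, and the Sprouty and Spred genes that restrain the path from receptors through Ras and Raf to the kinase ERK, are themselves transcribed when ERK is active, which makes them feedback inhibitors. In mast cells the stem cell factor receptor Kit and the IgE receptor both feed this path.

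The study asked what the loss of Mettl3, the enzyme that places m6A on mRNA, does to mast cells. Bone marrow derived mast cells (BMMCs) were grown from 4 C57BL/6 mice in culture with interleukin 3 and were resting, as the study describes them. In the Mettl3-RNP group the cells received ribonucleoproteins of Cas9 and guide RNAs against Mettl3, and the labels give their genotype as Mettl3 KO. The Pulsed group was mock transfected and received no Cas9 ribonucleoprotein, so the groups differ in the presence of Cas9 as well as in Mettl3, and the edited cells were an uncloned population checked for loss of the protein by staining. Each group held 4 libraries of polyadenylated RNA, with 32643260 to 45324826 counts per library. Mettl3 itself was at 12.3, 9.18, 4.88 and 9.21 CPM (the count of a gene relative to the TMM-scaled size of its library) in Mettl3-RNP replicates 1 to 4 and at 25.9, 24.5, 11.2 and 26.5 CPM in Pulsed, lower in each of the 4 pairs (log2 fold change -1.30, SE 0.109, edgeR adjusted p = 0.00543). Mast cell markers summed to 38900, 54000, 50900 and 54600 CPM in Mettl3-RNP replicates 1 to 4 and to 43900, 61700, 55300 and 60900 CPM in Pulsed. This sum was lower in Mettl3-RNP in each of the 4 pairs. The summed markers of neutrophils reached at most 0.398 CPM, with S100a8, S100a9, Elane and Camp at 0 in all 8 libraries, and those of lymphocytes at most 1.16 CPM, with Ms4a1 and Cd3d at 0. Macrophage markers summed to 8.12 to 36.4 CPM in Mettl3-RNP and 9.79 to 16.9 CPM in Pulsed, and 4 basophil markers to 539 to 857 and 564 to 682 CPM. Both sums were lower in Mettl3-RNP in pair 1 and higher in pairs 2 to 4. The median log2 fold change of the basophil markers was -0.55 all the same, with 1 of 4 fitted higher, beside 2 of 5 tested macrophage and 5 of 10 mast cell markers. Of all these markers Il18rap (basophil), Adgre1 (macrophage) and Cpa3 (mast cell) passed the edgeR test, each lower in Mettl3-RNP, with log2 fold changes of -0.79, -1.13 and -0.37. The part of these other cells in the results was not tested, and in bulk RNA fewer cells of a type and less RNA per cell cannot be told apart.

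Sequences are shown for Dusp1 and Dusp4, which had the lowest p-values of the 10, for Dusp5, whose spread between Pulsed libraries was next to that of Dusp1, and for Dusp6, which had the highest density of the motif GGACT. The promoters of Dusp1 and Dusp5 are given as the 150 bases before the start of the GENCODE canonical transcript (GRCm39, 5′ to 3′ on the gene's strand). Capitals mark the cAMP response element TGACGTCA of Dusp1, at chr17:26727494-26727643 on the minus strand, and 2 adjacent CArG boxes of Dusp5, the sequence bound by serum response factor, at chr19:53517382-53517531 on the plus strand.
Dusp1 promoter: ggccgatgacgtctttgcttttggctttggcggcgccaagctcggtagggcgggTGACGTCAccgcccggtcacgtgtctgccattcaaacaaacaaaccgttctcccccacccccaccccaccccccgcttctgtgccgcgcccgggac
Dusp5 promoter: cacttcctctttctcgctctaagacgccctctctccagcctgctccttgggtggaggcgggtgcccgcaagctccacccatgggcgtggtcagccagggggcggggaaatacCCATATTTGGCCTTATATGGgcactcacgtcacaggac
Searched on both strands from 250 bases before to 50 bases after the start, TGACGTCA was in 3.23% and a CArG box in 1.24% of the 12056 promoters of tested coding genes. Among the 10 genes only Dusp1 held the former and only Dusp5 the latter, and none held TGANTCA, the site of AP-1 factors, which was in 5.22% of promoters. A match describes the letters and does not show that a factor bound.

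The letters GGACT, a frequent form of the m6A consensus, and TTATTTATT, a form of the AU-rich element of short-lived mRNAs, were searched on the sense strand of the canonical transcript. The following 25-base windows hold the GGACT nearest the stop codon in Dusp4, Dusp6 and Dusp1 and the first TTATTTATT of Dusp1, in capitals.
Dusp4 GGACT: ccagctgttaGGACTcgtctctgga
Dusp6 GGACT: tctaccaggtGGACTccctgcagtc
Dusp1 GGACT: agaagagaaaGGACTctgtttgagg
Dusp1 TTATTTATT: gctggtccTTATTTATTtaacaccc
In Dusp4 the GGACT overlapped the stop codon (chr8:35285927-35285951, plus strand). In Dusp6 it lay within coding sequence, its first base 21 bases before the last base of the stop codon (chr10:99102130-99102154, plus strand). In Dusp1 it lay 272 bases and the TTATTTATT 103 bases after the stop codon, both in the 3′ UTR (chr17:26724968-26724992 and chr17:26725135-26725159, minus strand). GGACT was in 9 of the 10 transcripts, all but Dusp2, which is 90.0% against 93.8% of tested coding genes, and its median density was 1.65 per kb against 1.04. The wider m6A consensus, DRACH, which includes GGACT, was less dense in the 10 transcripts, with a median of 17.7 per kb against 19.9. Dusp1 was the only one with TTATTTATT in its 3′ UTR, and carried 2 copies. The 10 transcripts had 0.309 to 1.73 exon junctions per kb, each below the median of 2.62 for tested coding genes. No m6A was measured in these libraries.

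Levels of different genes were compared as CPM per kb of exon, averaged over the 4 Pulsed libraries. Spred1 was highest at 42.1 ± 19.4 (SD), followed by Dusp5 at 36.3 ± 54.8, Dusp1 at 29.1 ± 19.8 and Dusp6 at 25.4 ± 8.08. Spred2 was at 8.90 ± 7.60 and Dusp4 at 5.23 ± 3.55. The lowest were Spry2 at 2.19 ± 2.06, Spry1 at 1.52 ± 1.30, Dusp10 at 0.752 ± 0.777 and Dusp2 at 0.228 ± 0.272. Per length, Spred1, Dusp5, Dusp1 and Dusp6 had the highest means, but their order was not the same in every library. In Pulsed replicate 4, Dusp5 at 3.93 and Dusp1 at 0.766 were both below Spred2. The place of Dusp5 rested on replicate 3, without which its mean was 9.0, below Spred1 at 32.4, Dusp1 at 24.0 and Dusp6 at 21.4, whereas without replicate 4 it was 47.1, above Spred1 at 45.5. Dusp6 was above Spred2, Dusp4 above Spry2, Spry1 above Dusp10 and Dusp10 above Dusp2 in 4 of 4 Pulsed libraries, whereas the other neighbours changed places in at least 1 library. With the length of the longest transcript in place of all exons, Dusp1 stood above Dusp5. In Mettl3-RNP the means were 40.8 for Spred1, 30.6 for Dusp5, 28.6 for Dusp6, 19.6 for Dusp1 and 11.2 for Dusp4.

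**Figure D1:**
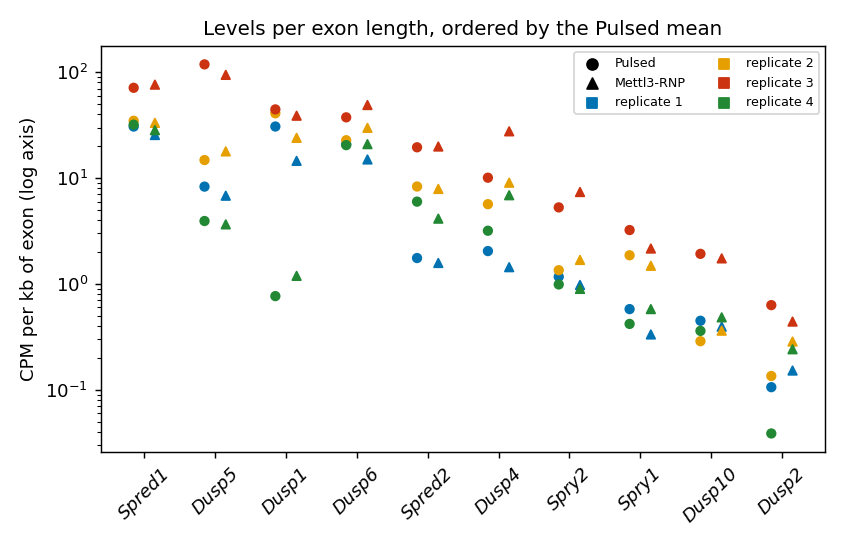
Level of each gene as CPM per kb of exon (log axis), with Pulsed libraries as circles and Mettl3-RNP libraries as triangles, coloured by replicate number. The genes are ordered by their Pulsed mean, from Spred1 at 42.1 to Dusp2 at 0.228, and Dusp1 in replicate 4 lies far below its other libraries.

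None of the 10 genes differed between Mettl3-RNP and Pulsed at an adjusted p of 0.05 or less (edgeR quasi-likelihood test with the replicate number as a block, Benjamini-Hochberg over all tested genes). Over all 14942 genes 559 passed (3.74%), with 351 above (2.35%) and 208 below (1.39%) their Pulsed level, and 308 (2.06%) also changed by at least 1.5-fold, which likewise included 0 of the 10. DESeq2, which called 9.7% of all genes, and limma-voom, which called 4.3%, also called 0 of them, and 1 of the 10, Dusp4, had an unadjusted p under 0.05, against 22.5% of all tested genes. The fitted change was higher in Mettl3-RNP for 5 and lower for 5, with a median log2 fold change of -0.0072 beside -0.0013 over all genes. In none did all 4 pairs move the same way, which 31.7% of tested genes did. Flipping the signs of the 4 paired differences, as an exact permutation test (two-sided), gave p from 0.25 to 0.875 for the single genes, where 0.125 is the smallest that 4 pairs allow.

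**Figure D2:**
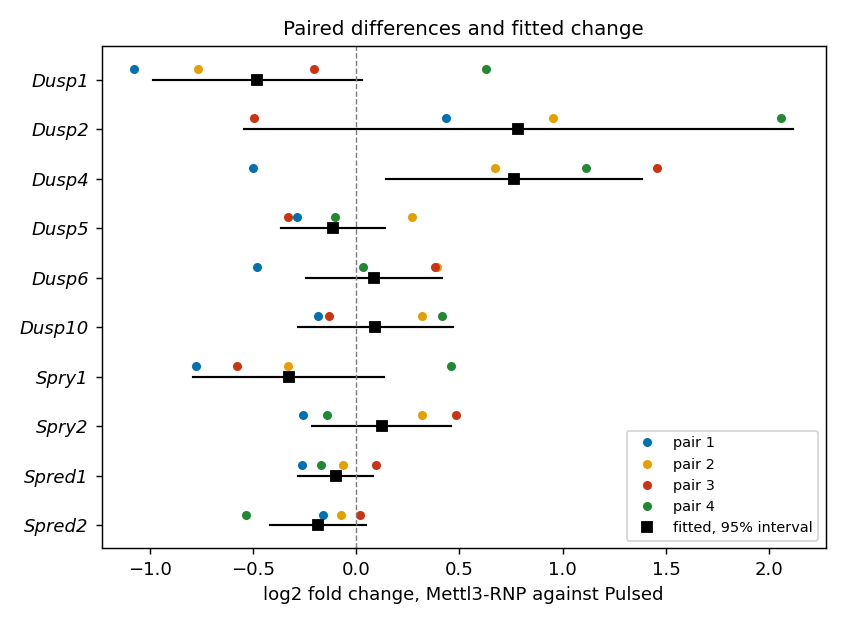
Log2 fold change of Mettl3-RNP against Pulsed for the 10 genes, as the difference of each pair (coloured points) and the fitted value with its 95% interval (squares and lines). The points of every gene lie on both sides of 0, and Dusp4 has the only interval that does not include 0, from 0.14 to 1.38.

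Dusp1, Dusp4, Dusp5 and Dusp2 encode phosphatases of the nucleus that are induced by signalling. Dusp1 (chr17:26724564-26781102, minus strand, 4 exons in the canonical transcript), which acts on ERK, p38 and JNK, was at 48.3, 79.7, 129 and 3.96 CPM in Mettl3-RNP replicates 1 to 4 and at 102, 136, 148 and 2.55 CPM in Pulsed. It was lower in pairs 1 to 3 and higher in pair 4, where both libraries had little of it, and its fitted log2 fold change was -0.48 (SE 0.218, edgeR adjusted p = 0.245). Without replicate 4 it passed the threshold, at -0.67 with an edgeR adjusted p of 0.0483, and without replicate 1 it was nearer to 0, at -0.26 with an edgeR adjusted p of 0.561. It also passed with all 4 pairs when low counts were not filtered, with an edgeR adjusted p of 0.0414. Pulsed libraries differed from each other 57.0-fold in Dusp1, and 0.154% of tested genes had a wider range. Its exons share 38 bases with those of Ergic1 on the opposite strand, and whether counting used the strand is not given in the sources used here.

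Dusp4 (chr8:35274442-35287048, plus strand, 4 exons), a phosphatase of the nucleus induced by ERK, was at 4.14, 26.0, 79.5 and 19.8 CPM in Mettl3-RNP and at 5.88, 16.3, 29.0 and 9.15 CPM in Pulsed. It was higher in pairs 2 to 4 by 0.67, 1.45 and 1.11 and lower in pair 1 by a log2 difference of -0.50, and the groups overlapped. The fitted log2 fold change was 0.76 (SE 0.268, 95% interval 0.14 to 1.38, edgeR adjusted p = 0.143). Without replicate 1 it was 1.05 with an edgeR adjusted p of 0.0254, and without replicate 3 it was 0.49 with an edgeR adjusted p of 0.343. With all 4 pairs and no filter on low counts it was 0.76 and passed, with an edgeR adjusted p of 1.68e-05. By limma-voom it was 0.97 with an adjusted p of 0.0502, just above the threshold, and by DESeq2 0.71 with an adjusted p of 0.275. Its exons overlap no other gene.

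Dusp5 (chr19:53517532-53530862, plus strand, 4 exons), a phosphatase specific to ERK, was at 16.9, 44.3, 234 and 9.06 CPM in Mettl3-RNP and at 20.6, 36.7, 294 and 9.75 CPM in Pulsed. Replicate 3 was the highest in both groups, and 99.5% of the variance of log2 CPM lay between replicate numbers. The fitted log2 fold change was -0.11 (95% interval -0.36 to 0.14, edgeR adjusted p = 0.601). Dusp2 (chr2:127177957-127180296, plus strand, 4 exons), a nuclear phosphatase of blood cells, was close to its detection limit, at 0.323, 0.607, 0.937 and 0.513 CPM in Mettl3-RNP and 0.225, 0.287, 1.34 and 0.0822 CPM in Pulsed. Its libraries held 3 to 54 counts. The interval of its log2 fold change, -0.54 to 2.11, was the widest of the 10 genes, so the fit does not settle whether Dusp2 changed.

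Dusp6 (chr10:99086564-99103361, plus strand, 3 exons), the cytoplasmic phosphatase specific to ERK, was at 50.8, 101, 166 and 70.9 CPM in Mettl3-RNP and at 70.9, 77.2, 127 and 69.4 CPM in Pulsed. It varied least among the phosphatases between Pulsed libraries, 1.83-fold, and its fitted log2 fold change was 0.09 (95% interval -0.24 to 0.41, edgeR adjusted p = 0.778). Dusp10 (chr1:183745499-183807842, plus strand, 4 exons), which prefers p38 and JNK over ERK, was at 2.40, 2.2, 10.6 and 2.94 CPM in Mettl3-RNP and at 2.73, 1.75, 11.7 and 2.19 CPM in Pulsed. Replicate 3 again stood above the other libraries in both groups, and the log2 fold change was 0.09 (95% interval -0.28 to 0.47, edgeR adjusted p = 0.793).

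The Sprouty proteins restrain signalling from receptor tyrosine kinases to Ras. Spry1 (chr3:37693897-37698755, plus strand, 3 exons) was at 1.59, 7.08, 10.3 and 2.76 CPM in Mettl3-RNP and at 2.76, 8.90, 15.4 and 2.00 CPM in Pulsed. It was lower in pairs 1 to 3 and higher in pair 4, as Dusp1 was, with a fitted log2 fold change of -0.33 (95% interval -0.79 to 0.13, edgeR adjusted p = 0.385). Spry2 (chr14:106128766-106136446, minus strand, 2 exons) was at 5.03, 8.67, 38 and 4.62 CPM in Mettl3-RNP and at 6.02, 6.94, 27.2 and 5.09 CPM in Pulsed, with a log2 fold change of 0.12 (95% interval -0.21 to 0.46, edgeR adjusted p = 0.673).

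The Spred proteins bring the Ras inhibitor neurofibromin to the membrane. Spred1 (chr2:116951524-117018277, plus strand, 7 exons), the most abundant of the 10 by CPM, was at 198, 258, 592 and 220 CPM in Mettl3-RNP and at 238, 270, 553 and 248 CPM in Pulsed. Its interval was the narrowest, -0.28 to 0.08 around a log2 fold change of -0.10 (edgeR adjusted p = 0.515). Spred2 (chr11:19874355-19974442, plus strand, 6 exons) was at 9.61, 48.1, 121 and 25.2 CPM in Mettl3-RNP and at 10.7, 50.7, 119 and 36.5 CPM in Pulsed, with a log2 fold change of -0.18 (95% interval -0.41 to 0.05, edgeR adjusted p = 0.326). In both genes pair 3 was slightly higher and the other pairs were lower.

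**Figure D3:**
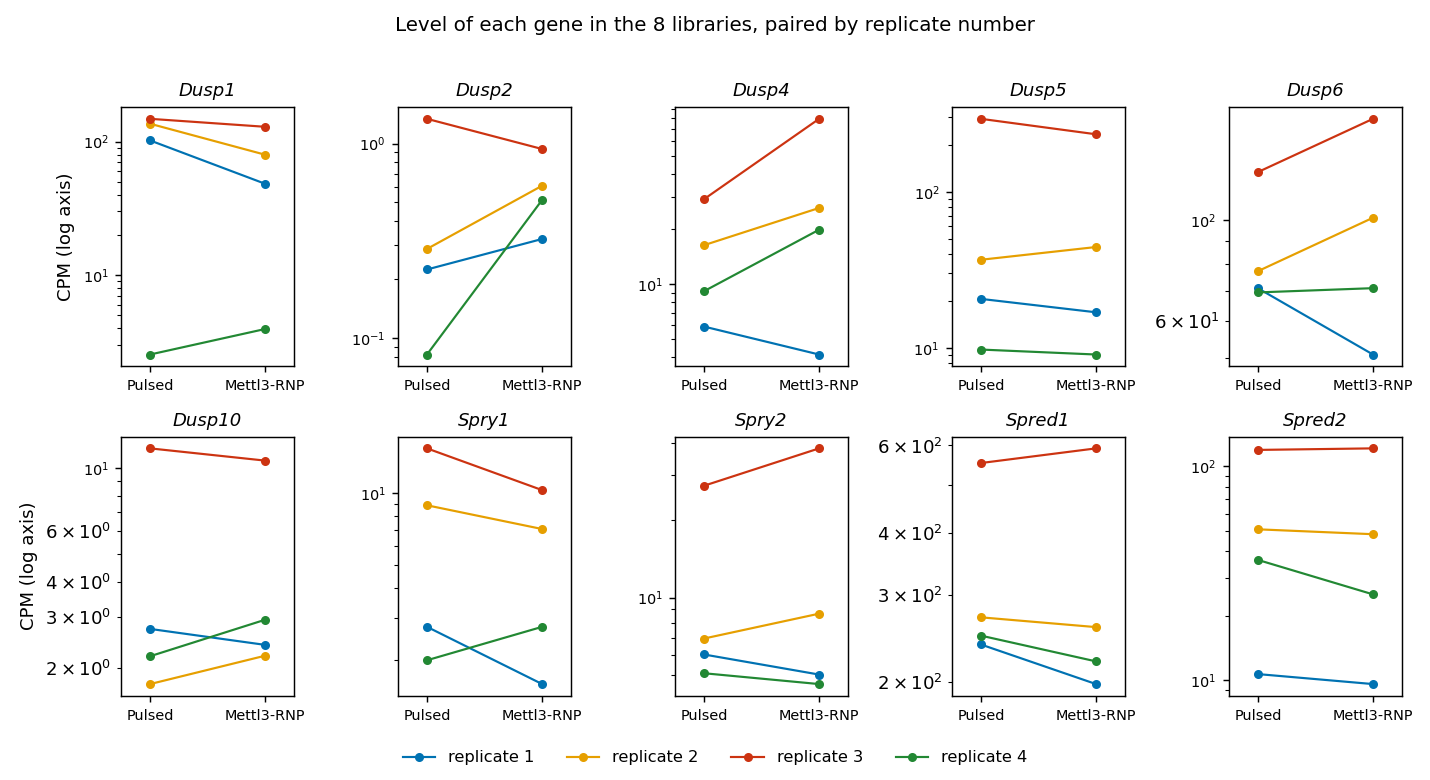
CPM of each gene in Pulsed and Mettl3-RNP (log axes, a separate scale per panel), with a line joining the libraries of the same replicate number. The lines are mostly flat compared with the distance between replicate numbers: replicate 3 is highest in every panel, and Dusp1 in replicate 4 is at 2.55 and 3.96 CPM.

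The larger differences were between replicate numbers and not between groups, and the labels do not say what a number stands for. The highest Pulsed library exceeded the lowest by a median of 7.0-fold over the 10 genes and 1.9-fold over all tested genes. A median of 97.5% of the variance of their log2 CPM lay between replicate numbers and 0.631% between groups, against 78.3% and 5.68% over all tested genes. Summed over the 10 genes, the level was 337, 576, 1380 and 360 CPM in Mettl3-RNP and 460, 605, 1330 and 385 CPM in Pulsed. A list of 19 immediate early and ERK target genes summed to 3790, 7420, 27500 and 1370 CPM in Mettl3-RNP and to 4300, 4850, 23700 and 1130 CPM in Pulsed. Both sums were highest in replicate 3 in each group. Within pairs 2 and 4 the sum over the 10 genes, of which Spred1 was the largest part, was lower in Mettl3-RNP and the immediate early sum was higher, whereas the median log2 difference of the 10 genes was above 0 in both pairs, at 0.29 and 0.22. The part of handling or of activation of the cells in these differences was not tested.

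**Figure D4:**
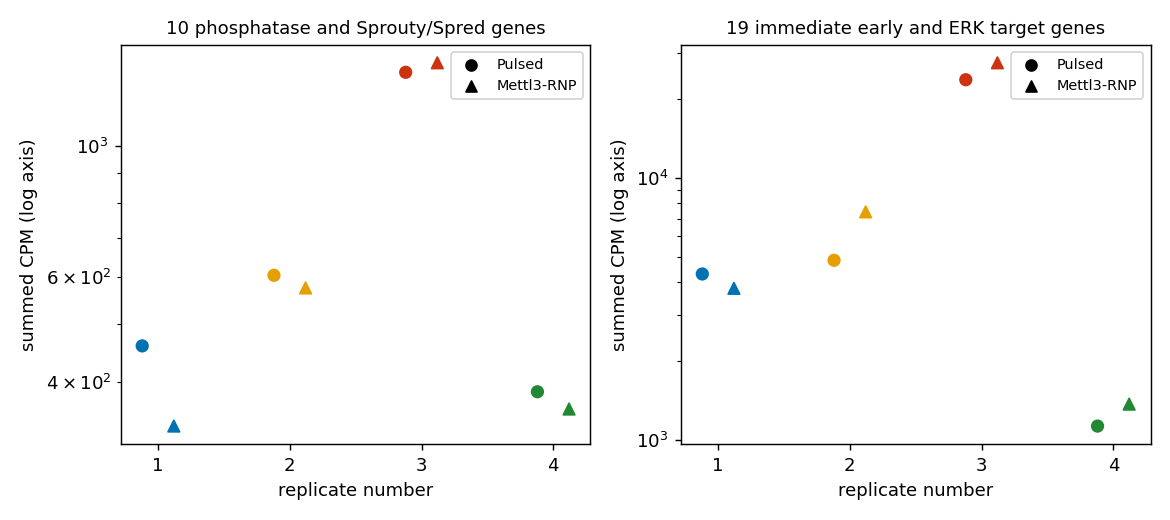
Summed CPM (log axes) of the 10 phosphatase and Sprouty/Spred genes and of 19 immediate early and ERK target genes, by replicate number, with Pulsed as circles and Mettl3-RNP as triangles. Both lists are highest in replicate 3, at 1330 and 1380 CPM and at 23700 and 27500 CPM.

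Across the libraries most of the 10 genes were high or low together. Pearson's r of log2 CPM over the 8 libraries, which share 4 replicate numbers, had a median of 0.795 over the 45 pairs of genes, from 0.263 for Dusp1 and Dusp4 to 0.981 for Spry2 and Spred1. Without replicate 3 the median was 0.49. The differences within pairs were less alike: in Mettl3-RNP 1, 6, 5 and 6 of the 10 genes were higher in pairs 1 to 4. Among 11976 other genes at a mean of 1 CPM or more, those most like the mean standardized level of the 10 were the RNA gene Snhg16 (r = 0.994), the ceramide synthase Cers2 (0.991), Mex3c (0.99), Ube2j2 (0.989) and the proteasome subunit Psmd8 (0.987).

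Around these genes, 8 lists of 112 pathway genes were examined. Of these 101 were tested and 2 passed (1.98%), beside 3.74% of all tested genes. Which of these shares was larger depended on the processing, as given at the end. Mapk7, which encodes the MAP kinase ERK5, was at 35.2, 35.2, 24.5 and 34.0 CPM in Mettl3-RNP and at 28.2, 27.1, 20.0 and 25.6 CPM in Pulsed, higher in 4 of 4 pairs (log2 fold change 0.35, SE 0.0732, edgeR adjusted p = 0.0452). It was the only one of 15 genes of the ERK kinase module to pass, and leaving out any 1 replicate gave edgeR adjusted p-values of 0.0606 to 0.232. With no filter on low counts it did not pass either (edgeR adjusted p = 0.139). Etv5, an ETS factor transcribed below ERK, was at 4.41, 29.0, 42.9 and 11.3 CPM in Mettl3-RNP and at 5.85, 47.9, 55.2 and 24.5 CPM in Pulsed, lower in 4 of 4 pairs (log2 fold change -0.66, SE 0.132, edgeR adjusted p = 0.0374). It did not pass without replicate 1, 2 or 4 (edgeR adjusted p = 0.0549, 0.166 and 0.106). Without the replicate block neither gene passed.

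The remaining lists held no gene that passed. Of the other MAP kinase phosphatases 0 of 11 tested genes passed, and the most abundant, Ptpn7 and Dusp3, had log2 fold changes of -0.13 and -0.05. Spred3, the tested gene among the other Sprouty and Spred genes, was at 0.26. For receptor and Ras activation 0 of 17 passed, with Kit at 0.08 and the adaptor Lat2 at -0.06, and for the Ras GTPase activating proteins 0 of 7, with Rasa3 at 0.16. In the JNK and p38 modules 0 of 20 passed, with Map3k7 at 0.13 and Map2k3 at 0.08. Among 13 kinases and factors below ERK none passed, with Rps6ka1 at 0.24 and Elk4 at -0.05. The median log2 fold change was -0.16 in the ERK kinase module, where 6 of 15 genes were fitted higher, and 0.22 in the immediate early and ERK target genes, where 14 of 17 were fitted higher, beside -0.0013 over all tested genes. In the ERK kinase module the median log2 difference was -0.062, -0.102, -0.139 and -0.142 in pairs 1 to 4. In the immediate early list it was -0.31 in pair 1 and 0.605, 0.158 and 0.236 in pairs 2 to 4. By edgeR, 34 of the 101 genes had an unadjusted p under 0.05, beside 22.5% of all tested genes. Of the 15 genes of the ERK kinase module 10 did.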

How the data were processed

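Polyadenylated RNA of 8 BMMC libraries (4 Mettl3-RNP, 4 Pulsed) was sequenced as paired-end reads. Per the submitters' processing notes and the study's methods, the authors checked reads with FastQC 0.11.9, aligned them to GRCm39 with HISAT2 2.2.1 and counted them per gene with featureCounts 2.0.1. The deposited values are raw counts, whole numbers with no normalization. A batch correction named in the methods is not visible in them. Strand and multimapping settings were not given in the sources used here, and 7 of the 10 genes share exon bases with a gene on the opposite strand. GENCODE release 39 named 56017 of 56748 IDs.

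Counts were filtered with filterByExpr and scaled by TMM in edgeR 4.0.16 (R 4.3.3), and Mettl3-RNP was tested against Pulsed by quasi-likelihood, blocking on the replicate number. The series text names 4 mice for 8 samples. Libraries of the same number deviated together from the mean of their group, with correlations of 0.489 to 0.879, against at most 0.183 for different numbers. Log2 CPM used a prior count of 2. DESeq2 1.42.0, limma 3.58.1 (voom), other filters and scaling, no block and leaving out each replicate were the alternatives. The code was tested on simulated data. The genes and lists were chosen with earlier results of these data known. The text names all 10 genes and, per pathway list, the genes that passed or, where none did, the 2 most abundant, together with Mettl3 and the 5 genes most alike in pattern. Cell type markers are named where they were at 0 in all libraries or passed the test, a choice made after their values were seen. Ets1 is named outside the rule, also after its values were seen. A gene that the rule would name is not reported here. Standard errors come from the spread between pairs, and without molecular identifiers a read is not an independent molecule.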

Additional observations from a re-analysis of the deposited data

Results flagged for a closer look

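In groups of 4 libraries, a value was set apart when its gap to the nearest other value exceeded 0.829 of the group's range. Of 56 groups of 4 values 14 met this, and all 14 were in replicate 3. About 1 in 20 (2.8) would be flagged by chance if the values were normally distributed. Gene levels were taken as CPM and not as log2 CPM, which widens the gap below a high value. The 14 set against 2.8 is therefore not a test. For the 10 genes, 10 of 20 groups met the rule. In Mettl3-RNP replicate 3 these were Dusp5 at 234, Dusp10 at 10.6, Spry2 at 38 and Spred1 at 592 CPM. In Pulsed replicate 3 they were Dusp2 at 1.34, Dusp5 at 294, Dusp6 at 127, Dusp10 at 11.7, Spry2 at 27.2 and Spred1 at 553 CPM. All of these were the highest of their group. The others were Mettl3 in Pulsed replicate 3, lowest of its group at 11.2 CPM, Mapk7 in Mettl3-RNP replicate 3, lowest at 24.5 CPM, Spry4 in Pulsed replicate 3 at 1.12 CPM, and the TMM scaling factor of Mettl3-RNP replicate 3, lowest at 0.9169. The values of 1 library are not independent of each other, and the cause was not tested.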

How the results depend on the processing

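Over 119 alternatives for single genes of the 10, 111 kept the direction and side of the threshold, 4 newly passed and 4 changed sign. With no filter on low counts, where 2.95% of 33650 genes passed, 2 of the 10 did (Dusp4, edgeR adjusted p = 1.68e-05, and Dusp1, edgeR adjusted p = 0.0414) and 1 with 1.5-fold; leaving out 1 replicate gave 0 to 1 by either rule. The sign changed for Dusp6 without replicate 2 (-0.025) and without replicate 3 (-0.019), with a range of -0.025 to 0.23 over the 4 replicates left out, for Spry2 without replicate 3 (-0.021, range -0.021 to 0.21), and for Dusp10 without the replicate block (-0.018). The median r between genes ranged from 0.49 to 0.862 when 1 replicate was left out. The ratio of the highest to the lowest mean Pulsed level per length, 185, ranged from 162 to 348 when 1 replicate was left out, which was added after seeing the data. The number of pathway genes that passed, 2 of 101, was 9 of 110 with no filter and 5 of 92 with at least 10 counts in every library. It was 12 of 101 with DESeq2 and 0 to 4 without 1 replicate. The share of all tested genes that passed, 3.74%, was 2.95% with no filter and 7.67% with at least 10 counts. It was 9.7% with DESeq2 and 0.174% to 2.57% without 1 replicate. The pathway share was the larger one with no filter, with DESeq2 and without replicate 3 (4 of 101 against 2.57%), and the smaller one in the main fit. The cause was not tested. Without the replicate block, that is, ignoring the pairing, 0 pathway genes passed and 0 of all 14942 genes did (579 at an unadjusted p under 0.05); Mettl3 was then at -1.31 with an edgeR adjusted p of 0.744. The spread estimate listed as an alternative is the default of edgeR and so the one reported; the other estimate (legacy off) was added after seeing the data and gave Dusp4 an edgeR adjusted p of 0.0790. DESeq2 gave no adjusted p for Dusp2, whose 3 to 54 counts limit what could be seen.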
